A study of Mus musculus with 16 samples.

Results

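The genes described here are Fos, Fosb, Crem, Nr4a3, Pde4b, Rgs1, Rgs2 and Rgs14, a set of targets of cyclic AMP (cAMP) and AP-1 signalling together with regulators of G protein signalling (RGS). Members were taken by gene name, as 8 of the 1413 genes that appear in either of 2 deposited tables. The tables cover eosinophils sorted from the duodenal lamina propria of mice, the connective tissue under the epithelium. Cells with high and cells with low surface CD11c (the integrin chain encoded by Itgax) were each taken at ZT3 (titled AM) and ZT15 (titled PM), where zeitgeber time (ZT) counts hours from lights on. Each of these 4 groups has 4 libraries of 1000 sorted cells. The sources used here name no genotype, strain, age, sex or treatment. CD11c level and hour are the only differences between the groups that they name, and whether others exist is not known. By its title, the study concerns how gut neurons and eosinophils act on duodenal regulatory T cells in the course of the day.

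Each table holds the authors' comparison of ZT15 with ZT3 within 1 subset and no value of a single library, so values per library are not given here. For every gene the tables give the mean count after normalisation, the log2 fold change shrunken towards 0, the posterior standard deviation of that change (given below after ±) and an s-value. When genes are called down to a given s-value, it is the share of their signs expected to be wrong, and every listed gene has one under 0.05. Of a gene outside a table neither the level nor the change is known here. The members were chosen by the log2 fold changes and s-values of these same comparisons, so their changes are a description and carry no new test. In bulk samples of this kind, fewer cells of a type and less RNA per cell cannot be told apart.

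Hormones and neuropeptides that act through Gs-coupled receptors, such as the receptors for vasoactive intestinal peptide, raise cAMP through adenylyl cyclase. Protein kinase A (PKA) then phosphorylates CREB, which binds the cAMP response element (CRE) in the promoters of genes such as Fos, Nr4a3 and Crem. Part of this programme is feedback: phosphodiesterase 4 degrades cAMP, and an isoform of CREM represses CRE promoters. RGS proteins speed the return of G protein alpha subunits, mainly of the Gi and Gq classes, to the inactive state. Fos and its relatives are also induced by calcium, by MAP kinases and by the handling of tissue, so they do not report cAMP alone.

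The promoters show how far the members share a CRE. Members were picked in part as targets of cAMP signalling, so a shared CRE is no result of these data. Of the 8 genes, 5 (Fos, Fosb, Nr4a3, Pde4b and Rgs2) have a promoter window in the RefSeq table used here, which is of build GRCm38.p6, with 4 starts for Pde4b. Below are the 250 bases before the start of Fos (chr12:85473640-85473889, plus strand), Fosb (chr7:19310046-19310295, minus strand), Nr4a3 (chr4:48045055-48045304, plus strand) and Rgs2 (chr1:144004150-144004399, minus strand). They are shown because each lies before a member with 1 start in the table, 5′ to 3′ on the gene's strand, and capitals mark matches to the CRE core (TGACG or its complement CGTCA).
Fos: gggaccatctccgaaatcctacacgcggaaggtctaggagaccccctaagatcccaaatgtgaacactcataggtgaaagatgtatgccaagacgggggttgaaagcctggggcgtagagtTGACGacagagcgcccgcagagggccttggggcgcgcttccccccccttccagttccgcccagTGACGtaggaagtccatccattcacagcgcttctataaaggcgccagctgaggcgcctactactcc
Fosb: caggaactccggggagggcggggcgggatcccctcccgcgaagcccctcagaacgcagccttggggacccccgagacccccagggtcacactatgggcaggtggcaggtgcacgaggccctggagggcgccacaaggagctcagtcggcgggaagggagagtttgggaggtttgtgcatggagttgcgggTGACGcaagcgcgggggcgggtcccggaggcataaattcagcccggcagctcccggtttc
Nr4a3: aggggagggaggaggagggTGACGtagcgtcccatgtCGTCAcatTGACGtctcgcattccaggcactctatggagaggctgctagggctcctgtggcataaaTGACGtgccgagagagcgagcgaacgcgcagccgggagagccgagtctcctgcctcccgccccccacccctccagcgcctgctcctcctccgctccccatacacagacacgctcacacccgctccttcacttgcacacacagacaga
Rgs2: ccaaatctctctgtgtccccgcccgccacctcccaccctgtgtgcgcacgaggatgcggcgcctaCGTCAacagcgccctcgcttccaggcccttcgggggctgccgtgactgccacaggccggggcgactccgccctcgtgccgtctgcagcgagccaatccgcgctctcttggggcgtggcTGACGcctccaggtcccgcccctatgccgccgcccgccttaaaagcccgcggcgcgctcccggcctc

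All 5 genes had a CRE core in a window from 250 bases before to 50 after a start, at 5 of their 8 starts. The CRE core is short: it was found for 23.0% of the 27025 genes in the promoter table and for 40.7% of the 526 matched genes that were higher at ZT15 in CD11c-low cells. Genes that were lower there held it as often, at 40.2% of 485. In Fos, matches lay 66 to 62 and 129 to 125 bases before the start, and in Fosb 1 match lay 60 to 56 bases before it. Nr4a3 had 4 matches, all between 231 and 143 bases before the start. Rgs2 had matches 67 to 63 and 185 to 181 bases before the start, and the first Pde4b start had 1 match at 34 to 30. Thus in Fos, Fosb and Rgs2 a match ends between 56 and 63 bases before the start, while in Nr4a3 all matches lie farther out.

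No member window held the full CRE (TGACGTCA), the AP-1 site (TGANTCA), the E-box (CACGTG) or the CArG box bound by serum response factor, on either strand. These were found in 1.79%, 7.81%, 7.15% and 1.63% of the 32851 windows in the table. A D-box (TTANGTAA) was matched at the fourth Pde4b start, against 2.32% of windows. The full CRE contains the CRE core, so those counts overlap. A match is a description of letters and not a bound site, and a missing match says only that the letters are not in the window.

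In CD11c-low eosinophils all 8 members were listed, and all were higher at ZT15. Fos, Rgs1 and Rgs2 had the largest changes, of 1.52 to 1.70-fold, Crem, Rgs14 and Nr4a3 came next, and Fosb and Pde4b changed least. Among all 1340 genes listed there, 52.2% were higher at ZT15, and the members were chosen with these directions in view, so nothing is read from the count of 8. Their median log2 fold change was 0.45, against 0.35 among the 691 listed genes that were higher, immunoglobulin genes left out. Fos, Rgs1 and Rgs2 were higher by at least 0.5 in log2, as were 10.8% of the listed genes. In CD11c-high cells Fos was the 1 member listed, among 172 genes of which 54.1% were higher.

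**Figure D1:**
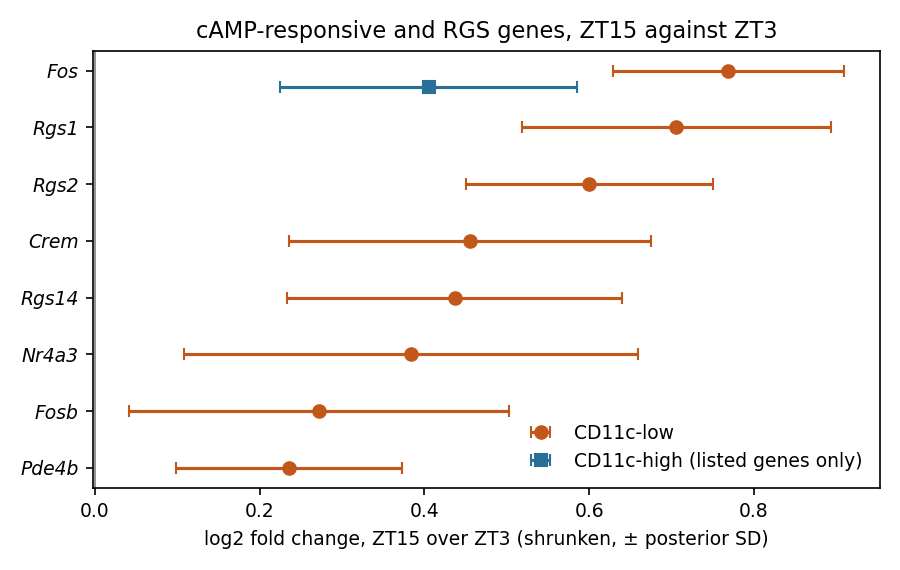
Shrunken log2 fold change at ZT15 over ZT3 (x axis) for each member (y axis), with ± posterior standard deviation, from the authors' deposited tables. Circles are CD11c-low and the square is CD11c-high, in which Fos alone was listed. All 8 circles lie above 0, from 0.24 for Pde4b to 0.77 for Fos.

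Fos (ENSMUSG00000021250.14) encodes a subunit of the AP-1 transcription factor and is a standard marker of recent stimulation. Its log2 fold change in CD11c-low cells was 0.77 ± 0.14 in the authors' deposited table, a fold of 1.70, at a mean normalised count of 3560. With an s-value of 3.74e-09 it ranked 13 among the 1340 listed genes, and its change was 5.48 times its standard deviation. Fosb (ENSMUSG00000003545.4), a close relative that also pairs with Jun proteins, stood at 0.27 ± 0.23 in the authors' deposited table, a fold of 1.21, at a count of 194. The Fosb s-value of 0.0448 was the member value nearest to the threshold, and its false sign rate taken by itself was 0.111. The Fos change was therefore far larger than its error, while the Fosb change was about the size of its error.

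Crem (ENSMUSG00000063889.17) encodes both activators and repressors of CRE promoters, including the cAMP-induced repressor ICER, which is made from a promoter inside the gene. The authors' deposited table gave it 0.46 ± 0.22, a fold of 1.37, with an s-value of 0.00427 and a count of 324. Values per gene do not separate ICER from the other Crem isoforms. In the annotation used here (GENCODE M21), Crem is overlapped by a non-coding gene on the other strand, Gm6225, the 1 such overlap among the members, and the sources do not say whether the counting used strand. Nr4a3 (ENSMUSG00000028341.10), an orphan nuclear receptor of the immediate early class, had a change of 0.38 ± 0.28 in the authors' deposited table, a fold of 1.30. It had the lowest count of the members, 160, the largest standard deviation, and a false sign rate of its own of 0.0704.

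Pde4b (ENSMUSG00000028525.17) encodes a phosphodiesterase that degrades cAMP and is a main form of that enzyme in leukocytes. Its change was the smallest of the set, 0.24 ± 0.14 in the authors' deposited table, a fold of 1.18, at a count of 3452. Pde4b and Fos had nearly the same count and standard deviation, so their errors are alike and the sizes of their changes differ. The s-value of Pde4b was 0.0143 and its own false sign rate 0.0406. A 95% interval from a normal approximation ran from -0.03 to 0.50.

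Rgs1 (ENSMUSG00000026358.14), which dampens signalling from chemokine receptors in lymphoid and myeloid cells, changed by 0.71 ± 0.19 in the authors' deposited table, a fold of 1.63. Its mean normalised count of 20407 was the sixth highest of all listed genes. Rgs2 (ENSMUSG00000026360.10), best known for acting on Gq, had 0.60 ± 0.15, a fold of 1.52, with a count of 1734 and an s-value of 2.60e-06 in the authors' deposited table. Rgs14 (ENSMUSG00000052087.15), which acts on Gi subunits and also binds Ras-family GTPases, had 0.44 ± 0.20, a fold of 1.35, at a count of 431 in the authors' deposited table. The 3 RGS changes span 0.27 on the log2 scale, against a span of 0.50 between Fos and Fosb.

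For Fos, Rgs1, Rgs2, Crem and Rgs14 the 95% interval (normal approximation) lay above 0. It included 0 for Pde4b, Nr4a3 and Fosb. By its own false sign rate, which does not average over stronger genes, a member was under 0.05 in 6 of 8 cases, the exceptions being Nr4a3 and Fosb. The same holds for 52.7% of all listed genes of the table. Members with the larger counts did not all change more: Pde4b had the third highest count and the smallest change.

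**Figure D2:**
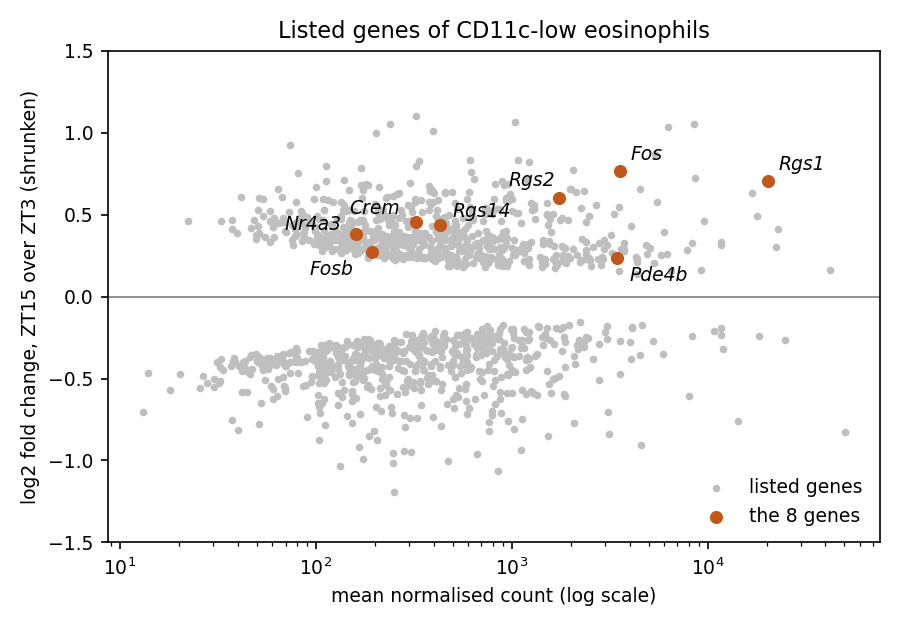
Mean normalised count (x axis, log scale) against shrunken log2 fold change at ZT15 over ZT3 (y axis) for the genes listed in CD11c-low eosinophils, members in orange. Of 1340 genes, 1321 are drawn and 19 lie beyond the axis at 1.5, and the gap around 0 is there because called genes alone are listed. Rgs1, Fos and Rgs2 lie among the larger changes at high counts, as do some genes that are no members.

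Per kilobase of transcript, which allows levels to be compared between genes, Rgs1 was the most abundant member in CD11c-low cells with 9603 normalised counts per kilobase. It was followed by Fos with 1689, Pde4b with 1421 and Rgs2 with 961. Crem (290) and Rgs14 (183) were lower, and Fosb (53.8) and Nr4a3 (29.6) were the lowest of these levels per kilobase. Lengths are the median over protein-coding transcripts in GENCODE M21, and no spread over libraries can be given. With the longest transcript in place of the median, Rgs1 had 5313, Pde4b 802, Rgs2 574 and Crem 111 normalised counts per kilobase. Crem then lay below Rgs14, and the order of the others stayed. Within the AP-1 pair Fos was therefore far above Fosb, and within the RGS genes Rgs1 was far above Rgs2 and Rgs14.

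Rgs1 and Rgs2 lie close together on mouse chromosome 1, in a run of RGS genes whose order in the RefSeq annotation is Rgs2, Rgs13, Rgs1, Rgs21 and Rgs18. Of these 5 neighbours Rgs1 and Rgs2 were listed in CD11c-low cells. Rgs14 is on chromosome 13, beside Lman2, which was listed in the same table. Of the whole RGS family, 3 of 21 genes were listed in CD11c-low cells, all higher and all members, and 0 of 21 in CD11c-high cells. The members were chosen by these same changes, so nothing is read from these counts. In all, 1340 genes were listed in CD11c-low cells, 52.2% of them higher, and 172 in CD11c-high cells.

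Fos could be followed in both subsets. In CD11c-high cells its log2 fold change was 0.41 ± 0.18 in the authors' deposited table, a fold of 1.32, with an s-value of 0.000515 and a mean normalised count of 2606. There it ranked 14 among 172 genes by s-value. The 99 genes in both tables make up 7.39% of the CD11c-low and 57.6% of the CD11c-high table, and 1 of the 8 members is among them. For the other 7 members the difference between subsets was not tested, since the CD11c-high table gives no value for them.

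The Fos change was 0.36 larger in CD11c-low cells on the log2 scale, with a 95% interval of -0.08 to 0.81. This difference did not pass (two-sided normal test of the deposited values, unadjusted p = 0.112, Benjamini-Hochberg adjusted p = 0.630 over the 99 genes in both tables). In that test 3 of the 99 genes passed and 10 had an unadjusted p under 0.05. All 99 genes entered the test by passing the s-value threshold in both subsets, and Fos was chosen by these same values. The p-values are therefore descriptive and do not decide whether the subsets differ. The test takes the subsets as independent and uses values that were shrunken separately, by an amount that is not known. The titles give both subsets the same replicate numbers at each hour, and no source says whether these mark shared animals. With a correlation of 0.5 assumed between the subsets, the unadjusted p was 0.0268 and the adjusted p 0.157. The ratio of the CD11c-high to the CD11c-low change was 0.53 for Fos, against a median of 0.67 over the 97 shared genes that are not immunoglobulin genes, and 37 of those had a smaller ratio.

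The genes whose pair of changes lay nearest to that of Fos, by distance over the 2 comparisons, were Pmvk, Dgat1, H2-D1, Mir142hg and Fndc5. Pmvk, an enzyme gene of the mevalonate pathway, was closest, with 0.77 ± 0.19 in CD11c-low and 0.45 ± 0.25 in CD11c-high cells in the authors' deposited tables. Dgat1, which encodes an enzyme of triglyceride synthesis, had 0.87 ± 0.11 and 0.32 ± 0.17 in the authors' deposited tables. The class I gene H2-D1 had 0.72 ± 0.14 and 0.28 ± 0.18 there, per the authors' deposited tables. None of these 5 is an AP-1, CREB or RGS gene, and likeness over 2 values is a weak measure.

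**Figure D3:**
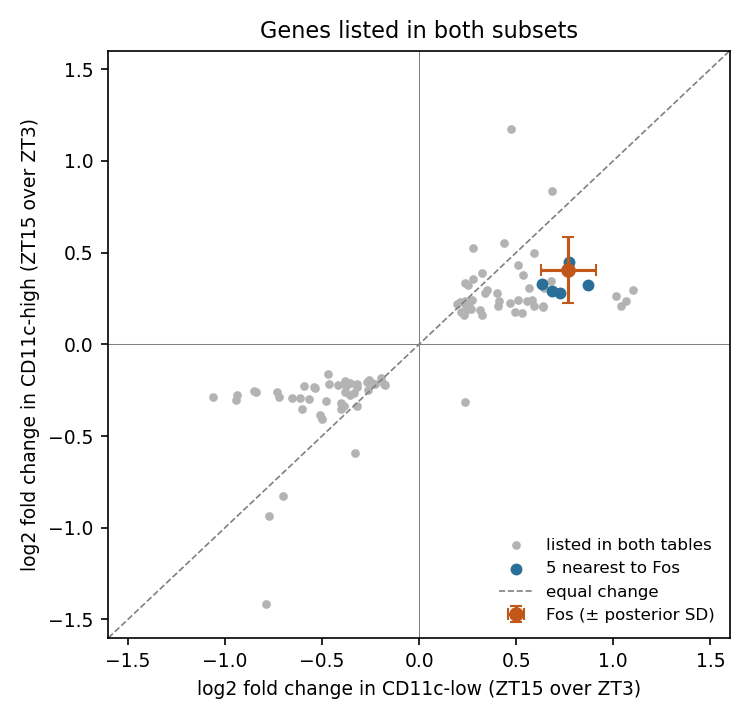
Shrunken log2 fold change in CD11c-low (x axis) against CD11c-high eosinophils (y axis) for 97 genes listed in both of the authors' deposited tables, Ig genes beyond 1.6 not drawn. Fos (orange, ± posterior standard deviation on both axes) lies at 0.77 and 0.41, under the dashed line of equal change, and blue points are its 5 nearest genes.

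The other genes of the pathway did not move as a block. In 11 lists that cover receptors, G proteins, RGS proteins, cAMP enzymes, PKA, CREB, AP-1 and NR4A factors, 33 of 223 genes were listed in CD11c-low cells. These were 19 higher and 14 lower, beside 52.2% higher among all genes listed there. Without the members, 25 of 215 were listed, 11 higher and 14 lower. Their median log2 fold change of -0.23 is taken over called genes alone, which leave a gap around 0. The members were chosen with their directions in view, so leaving them out lowers the count of higher genes by construction. Genes outside the tables are not known to be unchanged.

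Upstream of cAMP, few receptors for neural signals were listed. P2ry14, a receptor for UDP-sugars, had 0.16 ± 0.11 in the authors' deposited table for the CD11c-low subset. In all, 2 of 40 genes on that list were listed there, both higher. The list also holds the receptors for vasoactive intestinal peptide and neuromedin U, which were not listed, and 0 of 40 were listed in CD11c-high cells. All 3 listed G protein subunit genes of 27 were lower at ZT15, in a table of which 52.2% of genes were higher. Gnai3, a Gi alpha subunit of the kind that RGS proteins act on, had -0.80 ± 0.26 (s-value 0.000155) in the authors' deposited table, which is 1.74-fold lower. Gnaq, the Gq alpha subunit, had -0.32 ± 0.16 and Gng5, a gamma subunit, -0.28 ± 0.20 in the authors' deposited table.

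Among receptor kinases, arrestins and their relatives 4 of 11 genes were listed in CD11c-low cells, 3 of them higher. Of all genes listed there 52.2% were higher. Grk2, a kinase that desensitises receptors, had 0.25 ± 0.17 and Arrb1, beta-arrestin 1, 0.25 ± 0.21 in the authors' deposited table. Txnip had 0.28 ± 0.21 and Arrdc3, an arrestin-like protein gene, -0.38 ± 0.17 in the authors' deposited table. The own false sign rate was 0.0628 for Grk2, 0.107 for Arrb1 and 0.0778 for Txnip, against 0.0109 for Arrdc3, the gene that was lower.

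Adcy7 and the member Pde4b, whose products make and degrade cAMP, were both higher at ZT15, and the PKA list was mixed. Adcy7, an adenylyl cyclase of blood cells, was the 1 listed gene of 10 and had 0.37 ± 0.22 in the authors' deposited table. Pde4b was the 1 listed phosphodiesterase of 16. Of the PKA list 4 of 21 genes were listed, 1 higher and 3 lower. The regulatory subunit gene Prkar2a had 0.28 ± 0.24, the catalytic subunit gene Prkaca -0.39 ± 0.34, the regulatory subunit gene Prkar1a -0.22 ± 0.18 and the anchor gene Akap13 -0.23 ± 0.15 in the authors' deposited table. The own false sign rate of these 4 ran from 0.0671 to 0.112, so none is as firm as Fos, Rgs1 or Rgs2.

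In the AP-1 and CREB lists the few listed genes went both ways, beside 52.2% higher among all genes listed in CD11c-low cells. The members were chosen with their directions in view, so nothing is read from a contrast between them and the other listed genes. Of 17 AP-1 family genes 4 were listed in CD11c-low cells, Fos and Fosb higher and 2 lower. Jund, which encodes a dimer partner of Fos proteins, had -0.58 ± 0.31 at a low count of 69.6, and the small Maf gene Mafk -0.45 ± 0.23, in the authors' deposited table. Of 15 CREB family and coactivator genes, Crem was higher, whereas Atf2 (-0.44 ± 0.31) and the coactivator gene Crebbp (-0.23 ± 0.18) were lower in the authors' deposited table. The own false sign rate was 0.0217 for Jund, 0.0163 for Mafk, 0.0638 for Atf2 and 0.0980 for Crebbp. The changes of the unlisted genes in these families are not known. Nr4a3 was the 1 listed NR4A gene of 3.

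**Figure D4:**
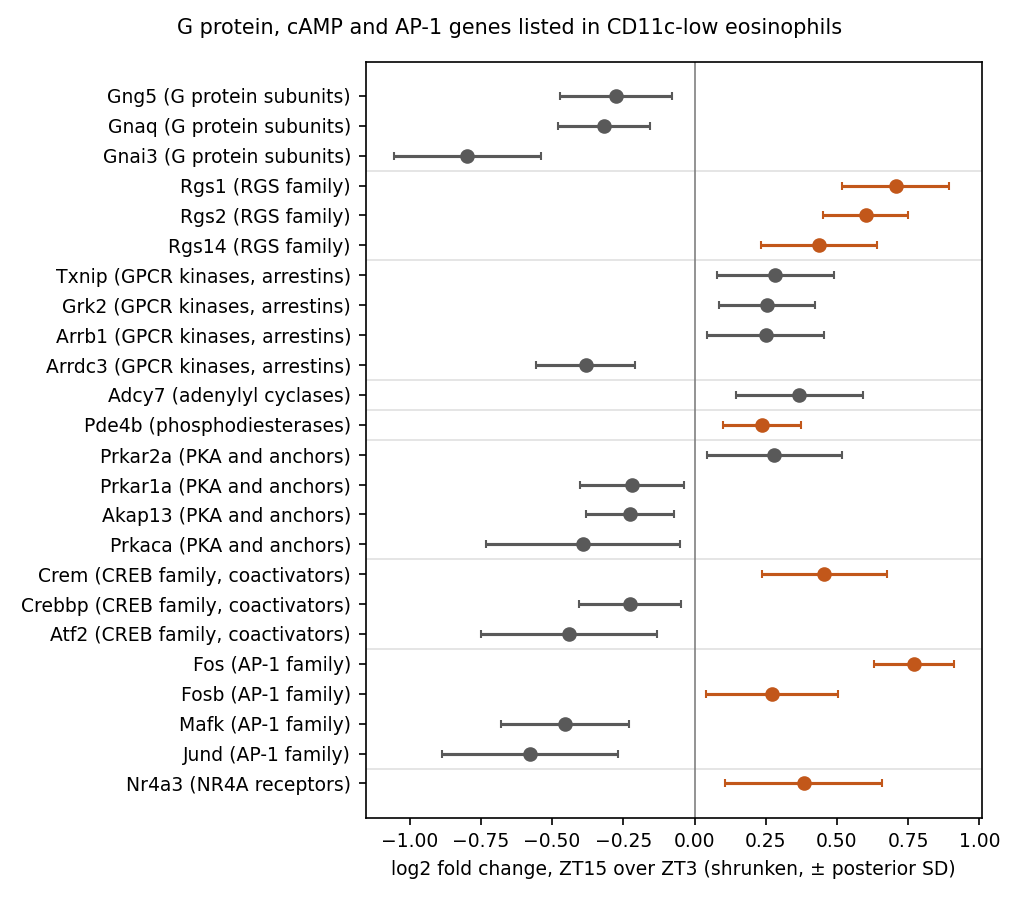
Shrunken log2 fold change at ZT15 over ZT3 (x axis, ± posterior standard deviation, from the authors' deposited table) for the 24 listed genes of 9 pathway lists in CD11c-low eosinophils (y axis), members in orange. The 8 members lie above 0, and of the other 16 genes 5 lie above and 11 below it, among them all 3 G protein subunits. The 2 receptor lists are not drawn, and over all 11 lists the other genes were 11 higher and 14 lower. With the members, which were chosen with their directions in view, the counts were 19 and 14.

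Further targets of cAMP and CREB gave no common direction. Of 27 such genes outside the set, Thbs1, a secreted matrix protein gene, had 0.23 ± 0.12 and the immediate early gene Ier2 -0.27 ± 0.14 in CD11c-low cells, per the authors' deposited table. In CD11c-high cells 1 of the 27 was listed, Plaur, the urokinase receptor gene, with -0.38 ± 0.21 in the authors' deposited table.

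Fos also belongs to the genes that respond to almost any stimulus and to tissue dissociation. Of 42 immediate early genes 12 were listed in CD11c-low cells, 6 higher and 6 lower. Without the 3 members among them, which were chosen with their directions in view, 3 were higher and 6 lower. Btg2 (0.31 ± 0.12) and Klf6 (0.37 ± 0.20) were higher, while Ier5 (-0.59 ± 0.19) and Zfp36 (-0.41 ± 0.15) were lower in the authors' deposited table. Of 40 genes linked to dissociation and stress, 10 were listed, 7 higher and 3 lower, among them the chaperone gene Hsp90ab1 (0.64 ± 0.15) in the authors' deposited table. Without Fos and Fosb, 5 were higher and 3 lower. In CD11c-high cells 2 of the 40 were listed, Fos and Hsp90ab1, both higher. The part of dissociation in the Fos and Fosb changes was not tested.

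Other measures moved in the same libraries. Of ribosomal protein genes 45 were lower and 3 higher in CD11c-low cells, 12 were lower and 0 higher in CD11c-high cells, and 5 mitochondrial mRNAs were higher in CD11c-low cells. Of 19 eosinophil markers 7 were listed in CD11c-low cells, 5 higher and 2 lower, and 0 in CD11c-high cells. Siglecf (0.23 ± 0.13) was higher, and Adgre1 (-0.29 ± 0.14) and Id2 (-0.61 ± 0.30) were lower in the authors' deposited table. Ccr3, Epx and Prg2 were in neither table, so the cell type cannot be checked on them. The 8 lists for other cell types held 8 listed genes in CD11c-low cells and 1, Hdc, in CD11c-high cells. The T and NK cell gene Gzma had the smallest s-value of these, 3.83e-07 at a count of 30.4, with a fitted log2 fold change of 21.0 in the authors' deposited table, from which no fold is read. Hdc, a gene of mast cells, basophils and other granulocytes, had 0.58 ± 0.20 in CD11c-low and 0.24 ± 0.19 in CD11c-high cells, per the authors' deposited tables. Higher in CD11c-low cells were also 2 of 11 B and plasma cell markers and the neutrophil marker Trem1 (0.34 ± 0.24). Of 18 macrophage, monocyte or dendritic cell markers, Cd68 (0.52 ± 0.30) was higher and Cd74 (-0.49 ± 0.33) lower. The epithelial marker Krt18 (-0.35 ± 0.24) was lower as well. These values are from the authors' deposited table. Immunoglobulin genes, most of them variable segments, numbered 15 in the CD11c-low and 9 in the CD11c-high table. Levels of these markers in each library are not known, and their part in the members' changes was not tested. Of 22 core clock genes Csnk1e was listed, in CD11c-low cells alone (0.54 ± 0.15 in the authors' deposited table), and no Per, Cry or Nr1d gene was listed to check the direction of the comparison, which was taken from the tables' names.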

How the data were processed

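The submitters' processing notes name STAR 2.7.10b, DESeq2 1.38.3 and build GRCm39 with no role stated. Not given in the sources used here are the counting of reads, its annotation and the way changes were shrunken. The authors deposited a mean normalised count (a signal: counts divided by size factors, averaged), a shrunken log2 fold change, its posterior standard deviation and an s-value, per the file headers. Libraries were Nextera XT libraries of amplified cDNA from polyadenylated RNA, per the labels' protocols. Library depth is unknown, and counting intervals are left out for that reason. No label ties libraries to separate animals, so the errors hold for the spread of these libraries and may be technical.

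Python 3.11.15 with SciPy 1.17.1, NumPy 2.4.6 and pandas 2.3.3 was used. Computed were ranks, folds, normal 95% intervals, counts per list (15 pathway and 9 marker lists), motif matches and the subset difference over all 99 shared genes. The code of the subset difference was run on simulated normal values. Those were neither shrunken nor selected by s-value, so that run does not give the error rates of the test on these data. Since s-values are running means down the sorted list, successive differences of the running sums gave each gene's own false sign rate. Members and lists were chosen with earlier results of these data known. Named are all members, up to 8 listed genes per list and table by smallest s-value, and the 5 genes nearest to Fos; some genes that this rule takes are not reported here. Promoters are RefSeq's, of GRCm38.p6, matched by symbol, a build other than the authors'; the other 3 members had no entry. Alternatives were stricter s-values, the gene's own rate, minimum counts and changes, other gene sets, an assumed correlation and other windows. A planned comparison of protein sequences was not made.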

Additional observations from a re-analysis of the deposited data

How the results depend on the processing

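All 8 members were listed in CD11c-low cells at the deposited threshold, and 8 when the mean count had to reach 50. At an s-value under 0.01 and under 0.005 there were 5 (Fos, Crem, Rgs1, Rgs2 and Rgs14), by the gene's own false sign rate under 0.05 there were 6, and with a log2 fold change of at least 0.5 there were 3 (Fos, Rgs1 and Rgs2). Under these settings the whole table held 518, 372, 706 and 313 genes, and no member was lower at ZT15. In CD11c-high cells Fos was the 1 member under each setting except the minimum change of 0.5, which left 0. Fewer genes pass a stricter rule by construction. The alternatives for the subset difference of Fos (0.36) change its error or the genes adjusted over and cannot move its size. The adjusted p ran from 0.157 to 0.641, and the unadjusted p was 0.0268 with an assumed correlation of 0.5 and 0.112 otherwise. The CRE core was found in 5 members in each window but that of the 100 bases before the start, where there were 4, and the Pde4b D-box lay outside that window. The length used for levels per kilobase was varied after seeing the data, and moved Rgs1, Rgs2, Pde4b and Crem by over 1.5 times. No paired analysis was possible because no column of the tables belongs to a library, and for the same reason leaving out each replicate was not run. Depth limits cannot be stated, since single libraries have no values here.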

Other observations

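Further G protein-coupled receptors of granulocytes, a list that includes chemoattractant and lipid receptors, were split in CD11c-low cells, where 7 of 42 genes were listed, 4 higher and 3 lower. Gpr183, an oxysterol receptor, had the largest change, 1.01 ± 0.22, and Ccr1, a chemokine receptor, 0.53 ± 0.20 in the authors' deposited table. The leukotriene B4 receptor gene Ltb4r1 (0.33 ± 0.20) and the short-chain fatty acid receptor gene Ffar2 (0.27 ± 0.17) were higher as well in the authors' deposited table. Lower were P2ry10 (-0.58 ± 0.22), Cxcr4, the receptor for CXCL12 (-0.47 ± 0.28), and Gpr132 (-0.41 ± 0.21), in the authors' deposited table.

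Some pathway genes other than Fos were listed in both subsets. Gnaq had -0.32 ± 0.16 in CD11c-low and -0.34 ± 0.24 in CD11c-high cells, and Arrdc3 -0.38 ± 0.17 and -0.20 ± 0.14, in the authors' deposited tables. Dusp6, a MAP kinase phosphatase gene, had -0.26 ± 0.18 and -0.25 ± 0.14 in the authors' deposited tables. Gpr183 (0.26 ± 0.22) and Ccr1 (0.17 ± 0.13) were also higher in CD11c-high cells, and the G protein beta subunit gene Gnb1 (0.24 ± 0.16) was listed in that subset alone, in the authors' deposited table.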
